A study of Mus musculus with 6 samples.

Results

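The genes described here encode ligands through which immune cells recognise, spare or hold on to a tumor cell. They are 9 of the 24190 genes in the count table: Cd274 and Lgals9 (checkpoint ligands of T cells), Cd47 (a checkpoint ligand of phagocytes), Ulbp1, Raet1d and Raet1e (ligands of NKG2D), Nectin2 and Pvr (ligands of DNAM-1) and Icam1 (an adhesion ligand). They were grouped by their known function, with earlier results of these data in view, and matched to the table by Ensembl identifier, and all 9 were found and had enough reads to be tested. RNA was sequenced from MTO54, 1 line of mouse tumor organoids (MTOs) described by the labels as AKP colorectal cancer organoids, a genotype that controls and treated samples share. The 3 Folfiri samples had been in medium with SN38 at 100 nM and 5FU at 50 μg/μl (so written in the labels) for 2 days, from day 2 after seeding on, although a figure legend of the study gives a longer treatment. The 3 control samples were kept in complete stem cell medium. 5FU is a fluoropyrimidine that disturbs thymidylate synthesis, and SN38, a metabolite of irinotecan, traps topoisomerase I on DNA. The organoids are 1 line, and no immune cells are named in the labels. The study calls the samples of a condition biological replicates, and no source used here says whether they were separate cultures, so the p-values measure the spread between these samples.

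As background, a T cell or a natural killer (NK) cell weighs activating against inhibitory signals when it touches an epithelial cell. PD-L1, the product of Cd274, engages PD-1 and dampens T cells, galectin-9 from Lgals9 is a ligand of TIM-3, and CD47 binds SIRPα on macrophages and dendritic cells and inhibits phagocytosis. NKG2D ligands such as MULT1 (Ulbp1) and the RAE-1 proteins (Raet1 genes) are distant relatives of MHC class I that mark stressed, infected or transformed cells for NK and T cells, while nectin-2 and the poliovirus receptor (Pvr) activate through DNAM-1 and inhibit through TIGIT and related receptors. ICAM-1 anchors leukocytes through the integrin LFA-1. In tumor epithelium, DNA damage and inflammatory signalling are known to raise several of these genes.

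The library totals ran from 22103591 to 30098210 counts, which for the rarest ligand, Ulbp1, meant between 11 and 88 counts per sample. Levels are given as CPM, which are counts relative to the library size after TMM scaling, and changes as log2 fold changes of Folfiri over control from edgeR's quasi-likelihood test, with p-values adjusted by the Benjamini-Hochberg method over the 14692 genes tested. At an adjusted p under 0.05, 79.1% of the tested genes were called, 40.3% higher and 38.8% lower after Folfiri, so a call by itself says little in this experiment and the size of each change is given against the distribution of all genes. TMM factors differed by group, with a range of 0.880 to 0.966 for controls and of 1.10 to 1.11 for Folfiri. With total counts in place of TMM scaling, the median log2 fold change over all genes moved from 0.02 to 0.30 and the share of calls that were higher moved from 51.0% to 63.3%. The organoids had the markers of epithelium, with a summed level of 8 epithelial genes of 5812 to 6793 CPM in controls and of 4763 to 4937 CPM after Folfiri. Of these 8 genes 1 was called higher (Cdh1) and 4 lower, among them Epcam, Cldn7 and Krt19 with log2 fold changes of -0.94, -0.75 and -0.62, and the part of this fall in those of Nectin2, the other nectins and F11r was not tested. Of 18 immune cell markers 15 were analysed here, with a summed level of 21.8 to 26.4 CPM in controls and of 23.3 to 24.1 CPM after Folfiri, most of which was Cd68. The T cell markers Cd3d, Cd3g, Cd4 and Cd8a had 0 or 1 counts in each control and 0 to 2 counts in each Folfiri sample. Of the 4 immune markers tested, Cd68 was not called and 3 rose from low levels, with log2 fold changes of 1.39 for the leukocyte marker Ptprc, 1.86 for the macrophage marker Adgre1 and 2.86 for Fcer1g, which became 4.53 without control sample 3. Of 8 fibroblast markers 7 were analysed, with a summed level of 1.08 to 1.44 CPM in controls and of 2.06 to 2.45 CPM after Folfiri. Dcn (2, 0 and 0 counts in controls, 19, 26 and 20 after Folfiri) and Pdgfra (log2 fold change 1.54) were higher and Col1a1 was lower. The summed level of 5 endothelial markers was 79.6 to 133 CPM in controls and 69.1 to 79.4 CPM after Folfiri, and was mostly Cdh5, which was at 124 CPM in control sample 1 and at 64.9 to 75.7 CPM in the other samples. Of the 3 endothelial markers tested, Vwf was called lower (log2 fold change -1.13), 0 were called higher and 2 were not called. The part of these markers in the rises of Icam1, Vcam1 and Thbs1 was not tested. Control sample 1 and Folfiri sample 3 stood apart from the rest of their groups, with a chi-square per degree of freedom of 23.9 to 25.3 against 4.03 for the other pair of controls, and of 12.8 to 13.3 against 3.76 for the other pair of Folfiri samples. Values without them are given where they move a result. As in any bulk measurement, fewer cells expressing a gene and less RNA per cell cannot be told apart.

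Of the 9 ligand genes, 4 were higher after Folfiri (Icam1, Lgals9, Ulbp1 and Cd274), Nectin2 was lower, and 4 (Cd47, Pvr, Raet1d and Raet1e) did not pass the test. The groups did not overlap for 6 of the 9, 4 of them higher and 2 lower, beside 81.4% of all tested genes, 41.6% higher and 39.9% lower. The median log2 fold change of the 9 genes was 0.01, beside 0.02 over all tested genes, and the interquartile range of all tested genes was -0.70 to 0.76. The ligands thus did not move as a group. The rise was 4.24-fold for Icam1, 3.03-fold for Lgals9, 2.68-fold for Ulbp1 and 1.79-fold for Cd274, and Nectin2 fell to 0.594 of its control level. The 5 called genes were called under 13 of 13 other settings of the analysis.

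**Figure D1:**
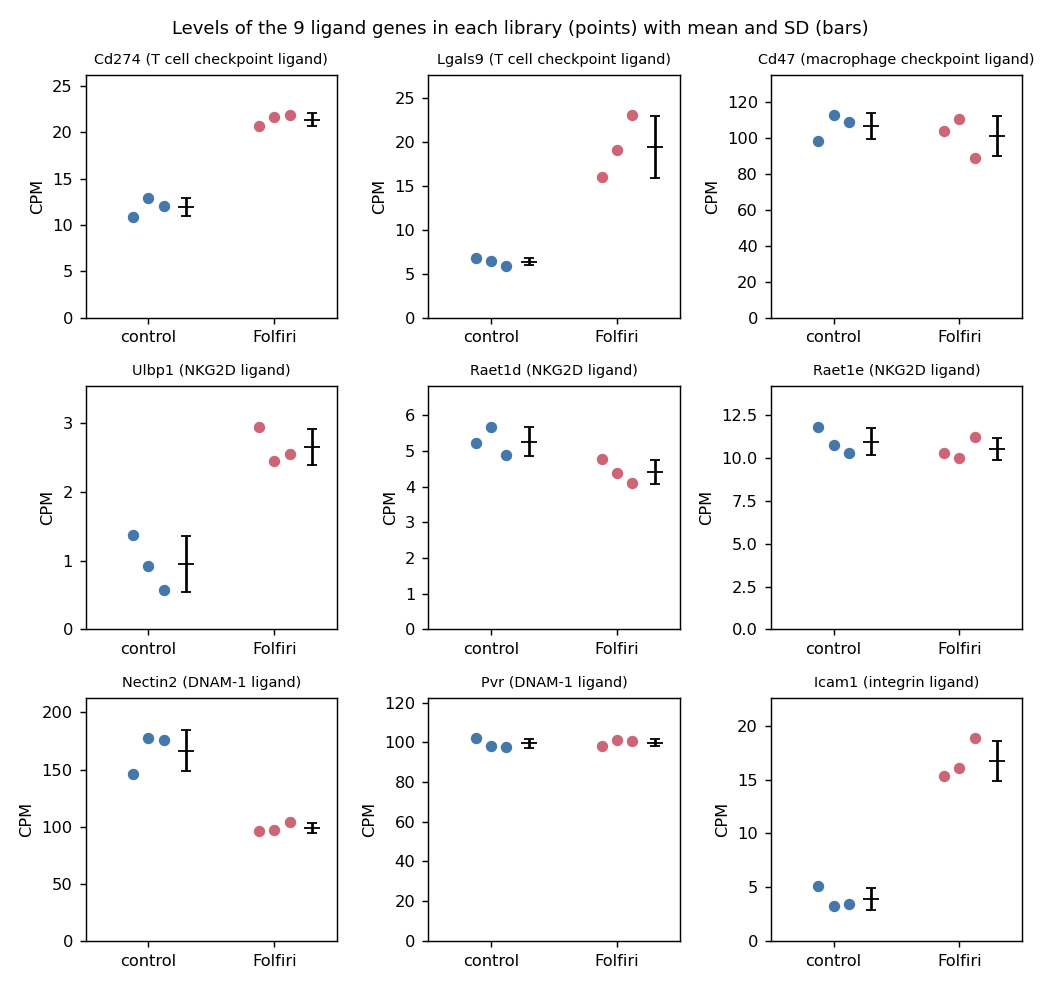
Level of each of the 9 ligand genes in every sample, as TMM-scaled CPM on a separate linear axis for each gene, with points for the 3 control and 3 Folfiri samples and bars for the mean and SD. The Folfiri samples lay above all controls for Icam1, Lgals9, Ulbp1 and Cd274 and below all controls for Nectin2 and Raet1d, and the groups overlapped for Cd47, Pvr and Raet1e.

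Icam1 (ENSMUSG00000037405, chromosome 9 of GRCm38 from 21015985 to 21028817, plus strand) had the largest change of the 9 genes. Its level was 5.11, 3.20 and 3.39 CPM in control samples 1, 2 and 3 and 15.3, 16.1 and 18.8 CPM in Folfiri samples 1, 2 and 3. The lowest Folfiri sample was thus about 3 times the highest control, and control sample 1 stood above the other controls. The log2 fold change was 2.09 (SE 0.17, 95% interval 1.70 to 2.47; edgeR, adjusted p = 1.23e-06), a fold of 4.24 with an interval of 3.25 to 5.54. Of all tested genes, 94.3% had a lower log2 fold change. Without control sample 1 the log2 fold change was 2.35, the highest value of any sample left out. The exons of Icam1 overlap a gene on the opposite strand, Gm47079 (not analysed here), over 11.7% of their bases, and the library kit does not mark strand, so reads in that stretch cannot be assigned to one of the strands.

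The rule for choosing the ligands did not use sequence, so the 250 bases before each start site were searched for short binding motifs of factors known to act on such genes. RefSeq (GRCm38.p6) gave a window for 8 of the 9 genes. The motifs were a κB site (GGAANTTCC, or a longer form with GGGA and TTTCC around 1 free base), an IRF element (GAAA, 2 free bases and GAAA), a STAT or GAS element (TTCNNNGAA), AP-1 (TGANTCA) and CRE (TGACGTCA), each on both strands, and no motif overlapped another in the matches found. They were picked after the sequences had been seen. Matches were present in Icam1 and Lgals9, and those windows are printed with the matches in capitals, followed by Cd274, the other checkpoint ligand that rose, whose window held no match.
Icam1, chr9:21015690-21015939, plus strand: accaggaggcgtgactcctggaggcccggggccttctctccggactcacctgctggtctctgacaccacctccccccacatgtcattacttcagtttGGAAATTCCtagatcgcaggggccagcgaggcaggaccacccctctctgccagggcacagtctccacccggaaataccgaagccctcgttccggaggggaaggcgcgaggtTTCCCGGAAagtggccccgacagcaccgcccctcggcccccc
Lgals9, chr11:78984925-78985174, minus strand: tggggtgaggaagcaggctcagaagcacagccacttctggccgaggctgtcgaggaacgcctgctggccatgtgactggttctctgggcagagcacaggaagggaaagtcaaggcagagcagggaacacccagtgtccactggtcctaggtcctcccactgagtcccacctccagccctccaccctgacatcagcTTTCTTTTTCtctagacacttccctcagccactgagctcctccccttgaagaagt
Cd274, chr19:29367188-29367437, plus strand: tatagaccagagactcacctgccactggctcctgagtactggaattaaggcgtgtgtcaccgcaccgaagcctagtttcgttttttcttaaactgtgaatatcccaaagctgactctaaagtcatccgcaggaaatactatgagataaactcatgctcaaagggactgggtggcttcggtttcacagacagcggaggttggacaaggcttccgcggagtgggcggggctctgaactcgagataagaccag
In Icam1 a κB match began 153 bases before the start and a GAS match 42 bases before it. Of 32851 mouse windows of the same length, 0.813% held this κB form and 7.02% the GAS form. In Lgals9 an IRF match, on the opposite strand, began 55 bases before the start, and 2.98% of windows held one. For the other motifs the shares were 0.356% for the longer κB form, 6.75% for AP-1 and 1.55% for CRE. The matches describe letters in these windows, and binding was not measured.

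Lgals9 (ENSMUSG00000001123, chromosome 11 from 78962974 to 78984946, minus strand), the source of galectin-9, was at 6.77, 6.48 and 5.91 CPM in the control samples and at 16.0, 19.1 and 23.03 CPM in the Folfiri samples. The groups were well apart, with more spread after Folfiri (SD 3.51 CPM) than before (SD 0.435 CPM). Its log2 fold change was 1.60 (SE 0.14, 95% interval 1.28 to 1.92; edgeR, adjusted p = 2.21e-06), above 90.1% of all tested genes, and ran from 1.46 to 1.72 when each sample was left out in turn. No annotated exon of another gene overlaps its exons.

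The rise of Lgals9 was not shared by most other galectins, a family of secreted lectins that bind β-galactosides. Of 8 other galectin genes and binding partners, 7 were tested, of which 1 was higher and 5 lower, beside 40.3% and 38.8% of all tested genes, with a median log2 fold change of -1.26. Lgals4, an intestinal epithelial galectin, fell from 397 to 81.9 CPM (log2 fold change -2.27, SE 0.10). Lgals1 had a log2 fold change of -1.50 and Lgals8 of -1.46. Lgals3bp, which encodes a secreted galectin-binding glycoprotein and not a galectin, was the gene of this list that rose (log2 fold change 1.19, SE 0.12). Among the galectin genes tested here, Lgals9 was therefore the one called higher.

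Cd274 (ENSMUSG00000016496, chromosome 19 from 29367455 to 29388095, plus strand), which encodes PD-L1, was at 10.91, 12.92 and 12.03 CPM in the control samples and at 20.7, 21.7 and 21.9 CPM in the Folfiri samples. Every Folfiri sample lay above every control, and the Folfiri samples differed little among themselves. The log2 fold change was 0.84 (SE 0.10, 95% interval 0.63 to 1.06; edgeR, adjusted p = 1.47e-05), above 77.0% of all tested genes, a smaller change than that of Icam1, Lgals9 or Ulbp1. An opposite-strand gene, AC119228.1, overlaps 14.1% of its exon bases and was not analysed here.

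Other ligands through which antigen-presenting and tumor cells steer T cells moved in both directions. Of 13 genes of the B7 and TNF families, 8 were tested, of which 5 were higher and 2 lower, beside 40.3% and 38.8% of all tested genes, with a median log2 fold change of 0.59. The second PD-1 ligand, Pdcd1lg2, chosen for mention after its values were seen, went from 16.6 to 31.8 CPM (log2 fold change 0.93), a change near that of Cd274. Icosl, the ligand of the costimulatory receptor ICOS, rose by a log2 fold change of 1.26 (SE 0.17). Vsir, which encodes the inhibitory ligand VISTA, fell from 12.8 to 0.598 CPM (log2 fold change -4.41, SE 0.22), and Vtcn1, which encodes the inhibitory ligand B7-H4, fell from 23.6 to 7.09 CPM (log2 fold change -1.74, SE 0.11). The inhibitory B7-type ligands therefore did not share a direction. Tnfsf4, the OX40 ligand, had 8, 0 and 0 counts in controls and 56, 86 and 68 after Folfiri, and its log2 fold change of 4.29 became 8.96 without control sample 1. Tnfrsf14, which encodes the BTLA ligand HVEM, had at most 4 counts in a control and between 11 and 18 after Folfiri, with a log2 fold change of 2.36 (SE 0.56), which became 3.42 without control sample 3.

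Cd47 (ENSMUSG00000055447, chromosome 16 from 49800533 to 49915010, plus strand) was at 98.7, 113 and 109 CPM in the control samples and at 104, 111 and 89.0 CPM in the Folfiri samples. The groups overlapped, and Folfiri sample 3 was the lowest of the 6. The log2 fold change was -0.08 (SE 0.09, 95% interval -0.28 to 0.13; edgeR, adjusted p = 0.447), so that the interval excludes a change of the size seen for Cd274. The value was 0.20 with total counts only (edgeR, adjusted p = 0.0567) and 0.01 without Folfiri sample 3. In both directions the test therefore gave no call for the macrophage checkpoint ligand.

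Within a sample, the ratio of Cd274 to Cd47 counts does not depend on library scaling. As log2 ratios with 0.5 added to each count, it was -3.17, -3.13 and -3.18 in the control samples and -2.33, -2.35 and -2.02 in the Folfiri samples. The T cell checkpoint transcript thus gained on the phagocyte checkpoint transcript in every Folfiri sample, by 0.92 on average. An exact permutation test, two-sided, gave p = 0.1, below which 3 against 3 samples cannot go, also after adjustment over the 3 ratios examined.

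Of 11 other genes with antiphagocytic or NK inhibitory roles, or that signal for uptake, 7 were tested, of which 3 were higher and 2 lower, beside 40.3% and 38.8% of all tested genes, with a median log2 fold change of 0.15. Thbs1, which encodes thrombospondin-1, a secreted partner of CD47, rose from 4.32 to 20.3 CPM (log2 fold change 2.23, SE 0.13). Ceacam1, an inhibitory ligand of NK and T cells that is abundant in intestinal epithelium, had a log2 fold change of 0.66 (SE 0.08). Calr, which encodes calreticulin, an uptake signal when exposed on the cell surface, had a log2 fold change of -0.87 (SE 0.09). H2-T23, which encodes Qa-1b, the ligand of the inhibitory receptor NKG2A, had a log2 fold change of -0.45, which did not pass the test with total counts only (-0.17; edgeR, adjusted p = 0.0732). A complement regulator, Cd46, was called higher (log2 fold change 1.55) on 2 to 4 counts in controls and 10 to 13 after Folfiri, a call that was lost in DESeq2's Wald test (adjusted p = 0.0659).

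Among the NKG2D ligands, Ulbp1 rose whereas Raet1d and Raet1e did not pass the test. Ulbp1 (ENSMUSG00000079685, chromosome 10 from 7440362 to 7473638, minus strand) was at 1.37, 0.920 and 0.566 CPM in the control samples and at 2.95, 2.45 and 2.55 CPM in the Folfiri samples. These levels came from 38, 23 and 11 counts in controls and 88, 76 and 84 counts after Folfiri, and the groups did not overlap. The log2 fold change was 1.42 (SE 0.25, 95% interval 0.86 to 1.99; edgeR, adjusted p = 0.000384), above 88.0% of all tested genes. It was 1.19 without control sample 3 and 1.79 without control sample 1, the range over the samples left out.

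Raet1e (ENSMUSG00000053219, chromosome 10 from 22158569 to 22374139, plus strand) was at 11.8, 10.8 and 10.3 CPM in the control samples and at 10.3, 10.0 and 11.3 CPM in the Folfiri samples. Its groups overlapped. The log2 fold change was -0.06 (SE 0.11, 95% interval -0.30 to 0.18; edgeR, adjusted p = 0.619), with 0.21 under total counts only. Raet1d (ENSMUSG00000078452, chromosome 10 from 22360552 to 22374139, plus strand) was at 5.22, 5.68 and 4.88 CPM in the control samples and at 4.76, 4.39 and 4.10 CPM in the Folfiri samples. Each Folfiri sample of Raet1d lay below each control, by a small margin. Its log2 fold change of -0.26 (SE 0.13, 95% interval -0.55 to 0.04; edgeR, adjusted p = 0.0987) did not pass the test and was 0.02 under total counts only.

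The Raet1 genes are near copies of each other and cannot be fully separated by short reads. The annotated span of Raet1e runs over Raet1d on the same strand, 25.2% of the exon bases of Raet1d are also exon bases of Raet1e, and 56.4% of the 50-base windows of the longest Raet1d transcript also occur in Raet1e transcripts. For Raet1e, 22.97% of exon bases overlap Raet1d or H60b and 44.4% of windows are shared. The likeness extends to the start of Raet1d and the second annotated start of Raet1e. The same 150 bases from both promoters are printed (RefSeq, GRCm38.p6), with capitals at the bases that differ. The window of the first annotated Raet1e start was not aligned with them.
Raet1d, chr10:22361742-22361891, plus strand: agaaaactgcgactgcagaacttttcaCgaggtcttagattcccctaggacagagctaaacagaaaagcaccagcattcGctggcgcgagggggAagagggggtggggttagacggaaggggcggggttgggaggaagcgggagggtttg
Raet1e, second annotated start, chr10:22173347-22173496, plus strand: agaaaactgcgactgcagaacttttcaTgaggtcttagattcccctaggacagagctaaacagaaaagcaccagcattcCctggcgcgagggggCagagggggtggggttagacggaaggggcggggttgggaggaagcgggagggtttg
The differences were C28T, G80C and A95C, with the Raet1d base first and positions counted from 1 at the 5′ end of the printed run, and the 248 bases that could be aligned were 98.8% identical. Because of this likeness the counts of the pair were also summed. The sum had a log2 fold change of -0.12 (SE 0.09, 95% interval -0.33 to 0.09; edgeR, adjusted p = 0.254), so the RAE-1 transcripts together gave no call either.

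The log2 ratio of Ulbp1 to the summed Raet1d and Raet1e counts was -3.62, -4.13 and -4.68 in the control samples and -2.35, -2.55 and -2.58 in the Folfiri samples. Every Folfiri sample was above every control, by 1.65 on average, for which the same exact permutation test gave p = 0.1. Raet1d and Raet1e transcripts nevertheless outnumbered those of Ulbp1 in all 6 samples. Of 6 other NKG2D ligands looked for, 2 were tested, of which 1 was higher and 0 lower, beside 40.3% and 38.8% of all tested genes. The rest, Raet1a, Raet1b, Raet1c and H60a, were not in the annotation used here, so their levels are not known. H60b, an NKG2D ligand of the H60 family, went from 3.40 to 6.49 CPM (log2 fold change 0.94, SE 0.13; edgeR, adjusted p = 6.40e-05), and 10.97% of its exon bases overlap Raet1e. H60c, of the same family and chosen for mention after its values were seen, had 1.09 CPM in controls and 0.811 CPM after Folfiri and was not called (log2 fold change -0.41; edgeR, adjusted p = 0.135).

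**Figure D2:**
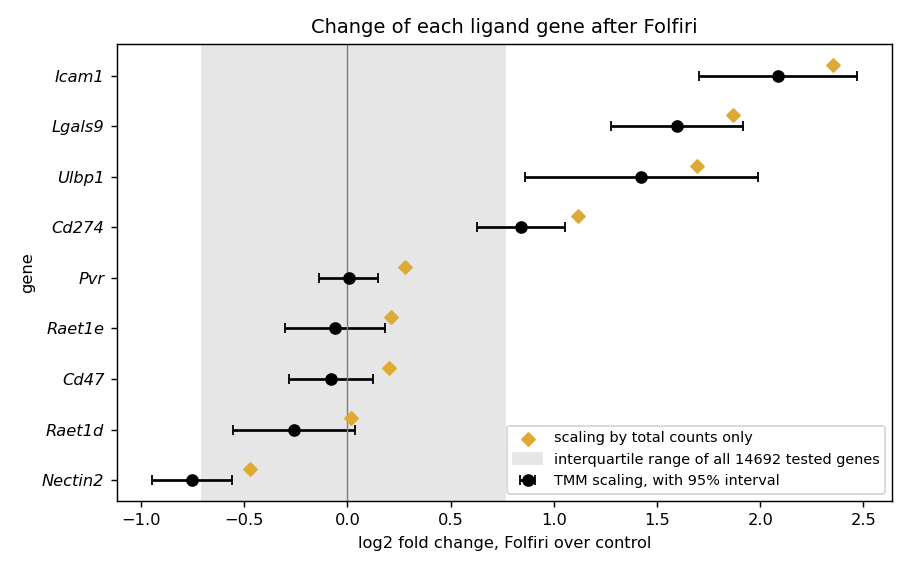
Log2 fold change of Folfiri over control for each of the 9 ligand genes with its 95% interval from edgeR (horizontal axis), beside the value with total counts only; the grey band is the interquartile range of all 14692 tested genes. Icam1, Lgals9, Ulbp1 and Cd274 lay above the band, Nectin2 lay just below it, and Cd47, Raet1d and Raet1e were on opposite sides of 0 under both scalings.

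The ligands of DNAM-1 and TIGIT were among the most abundant of the 9 genes, and only Nectin2 was called. Nectin2 (ENSMUSG00000062300, chromosome 7 from 19716644 to 19750483, minus strand) was at 146, 177 and 176 CPM in the control samples and at 95.9, 96.7 and 104 CPM in the Folfiri samples. The groups were far apart, and control sample 1 was the lowest control. The log2 fold change was -0.75 (SE 0.09, 95% interval -0.95 to -0.56; edgeR, adjusted p = 1.53e-05). It ranged from -0.84 to -0.71 when each sample was left out in turn, and was -0.47 with total counts only, where it was still called. A lower log2 fold change was found in 23.5% of all tested genes, so a fall of this size was common in the experiment.

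Pvr (ENSMUSG00000040511, chromosome 7 from 19903578 to 19921160, minus strand) was at 102, 98.3 and 97.9 CPM in the control samples and at 97.9, 101 and 101 CPM in the Folfiri samples. Its groups overlapped, and its log2 fold change was 0.01 (SE 0.06, the smallest of the 9 genes, 95% interval -0.14 to 0.15; edgeR, adjusted p = 0.937). With total counts only the value was 0.28 and passed the test (edgeR, adjusted p = 0.00543), close to the median log2 fold change of 0.30 of all genes under that scaling. Nectin2 and Pvr lie 153094 bases apart on the same strand of chromosome 7. Their log2 ratio was 0.52, 0.85 and 0.85 in the control samples and -0.03, -0.06 and 0.05 in the Folfiri samples. An excess of Nectin2 counts in controls was thus gone after Folfiri, a difference of -0.75, again with p = 0.1 in the exact permutation test. This holds for counts, which are not divided by length. Per kilobase of annotated exon, Nectin2 remained above Pvr after Folfiri, at 28.3 against 16.3 CPM.

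**Figure D3:**
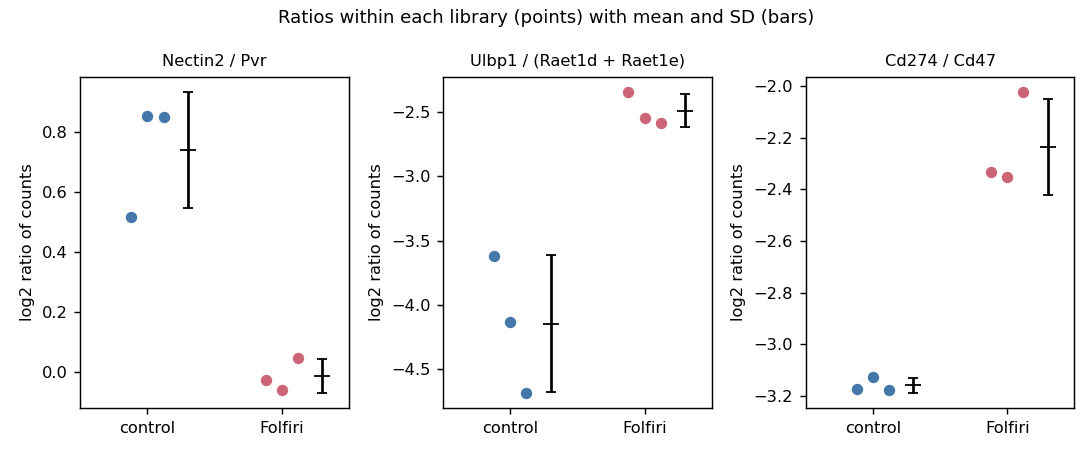
Log2 ratio of counts within each sample for Nectin2 over Pvr, Ulbp1 over the sum of Raet1d and Raet1e, and Cd274 over Cd47, with a point for each of the 3 control and 3 Folfiri samples, bars for the mean and SD, and a separate vertical axis in each panel. In each panel the control and Folfiri samples did not overlap.

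Nectins and nectin-like molecules hold epithelial cells together and serve as ligands or partners of DNAM-1, TIGIT, CD96 and CRTAM. Of 8 further genes of this family, 5 were tested, of which 0 were higher and 4 lower, with a median log2 fold change of -0.96. Nectin4, a TIGIT ligand, fell from 80.8 to 34.7 CPM (log2 fold change -1.22, SE 0.09). Nectin1, a partner of Nectin4 in adhesion, had a log2 fold change of -1.01 (SE 0.13), and Cadm1, the ligand of CRTAM, of -0.96 (SE 0.12). With Nectin2, 5 of the 7 tested genes of the nectin group including Pvr were lower after Folfiri and none higher, although a fall was also called in 38.8% of all genes.

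Beyond Icam1, 15 further genes of leukocyte adhesion were examined, which included ligands of integrins and selectins and some ligands of other leukocyte receptors such as Alcam and Ly9. Of the 8 tested, 3 were higher and 4 lower, beside 40.3% and 38.8% of all tested genes, with a median log2 fold change of -0.38. Vcam1, the ligand of the integrin VLA-4 and best known from endothelium, had 0, 0 and 1 counts in controls and 18, 22 and 22 after Folfiri, a ratio of 47.7 with a 95% counting interval of 8.26 to 1916. Podxl, a sialomucin that can carry selectin ligands, rose with a log2 fold change of 1.15 (SE 0.13). Cdh1, E-cadherin and the ligand of the integrin CD103, had a log2 fold change of 0.21 (edgeR, adjusted p = 0.0350). Alcam, the ligand of CD6 on T cells, fell from 92.9 to 35.5 CPM (log2 fold change -1.39, SE 0.08). F11r, a junctional molecule that binds LFA-1 as ICAM-1 does, had a log2 fold change of -0.60, and Ly9, a low-count self-ligand of lymphocytes, of -0.88. The calls of Cdh1 and Ly9 did not hold under all alternatives, with adjusted p up to 0.150 and 0.0841 in edgeR or DESeq2. Icam1 and F11r, both ligands of LFA-1, were thus called in opposite directions.

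**Figure D4:**
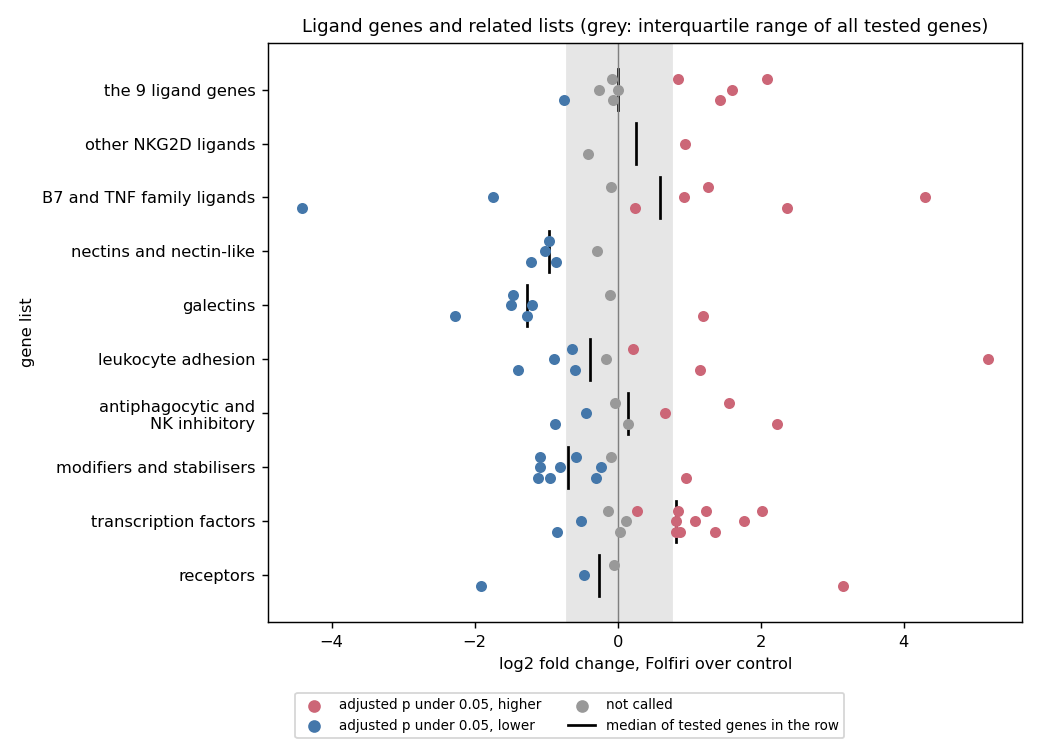
Log2 fold change of Folfiri over control (horizontal axis) for the tested genes of the 9 ligands and of 9 related lists (rows), with red points called higher, blue points called lower, grey points not called, and a black line at each row's median. The 9 ligands had a median of 0.01, the nectin and galectin rows had medians of -0.96 and -1.26, and the row of transcription factors had the highest median, 0.82.

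Levels were set side by side after division by the length covered by all annotated exons of a gene. For Pvr and Icam1 this length was 6122 and 4360 bases, beside 2905 and 2535 bases for the longest transcript. The order below holds for this length only, and orders by transcript length were not examined. In controls, Nectin2 led with 47.7 ± 5.12 CPM per kilobase (SD, n = 3), followed by Cd47 with 17.0 ± 1.18 and Pvr with 16.2 ± 0.378, whose ranges overlapped. Raet1e followed with 5.08 ± 0.371 CPM per kilobase. Raet1d, Cd274 and Lgals9 came next at 3.65, 3.30 and 2.99 CPM per kilobase, each overlapping its neighbour in the order. Icam1 with 0.895 ± 0.242 and Ulbp1 with 0.141 ± 0.0598 CPM per kilobase were last. The genes that rose thus came from the lower part of the control order, and the most abundant gene was the one that fell.

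After Folfiri, Nectin2 was still first with 28.3 ± 1.26 CPM per kilobase. Pvr with 16.3 and Cd47 with 16.1 CPM per kilobase again overlapped. Lgals9 with 9.07 ± 1.64 and Cd274 with 5.91 ± 0.179 CPM per kilobase now stood above Raet1e with 4.88 ± 0.301. Icam1 with 3.84 ± 0.427 CPM per kilobase passed Raet1d with 3.06 ± 0.232, and Ulbp1 stayed last with 0.394 ± 0.0393. Between these neighbours, other than Pvr and Cd47, the ranges of the 3 samples did not overlap. Exon lengths of the Raet1 genes include stretches they share, and how reads in such stretches were counted is not known. The places of Raet1d and Raet1e, among themselves and beside Cd274, Lgals9 and Icam1, are therefore approximate.

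Genes whose pattern over the 6 samples was nearest to a ligand were found by the Euclidean distance between log2 CPM values after centring each gene on its mean. For Icam1 these were Kti12 (distance 0.107) and Nup35, for Lgals9 Gm12026 (0.137) and Rpp40, and for Cd274 Rhot2 (0.0684) and Eps8l2. For Nectin2 they were Gm13408 (0.0284) and Arpc1b, and for Pvr Tbc1d14 (0.0314) and Ppp1r7. Raet1d was nearest to Smarcal1 and Usp44, and Raet1e to Ercc3 and Coq2. With 6 samples in 2 groups, such likeness mostly reflects a similar difference between the groups.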

How the data were processed

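RNA of 3 control and 3 Folfiri samples of MTO54 organoids had been sequenced from poly(A)-selected libraries made with a kit that does not mark strand. The authors aligned the reads to GRCm38 with STAR 2.5.2, sorted them with Sambamba, used Rsubread for counts per gene of a GENCODE annotation, and deposited these unnormalized. The strand and multiple-overlap settings of the counting are not given in the sources used here. Samples were grouped by the labels. Of the 24190 identifiers, 24168 were matched to GENCODE vM21 for symbols, positions, exon lengths and exon overlaps. This annotation is of the same build but is not the release that the study names for its counts.

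The deposited counts were filtered with filterByExpr, scaled with TMM factors and fitted by quasi-likelihood in edgeR 4.0.16 (R 4.3.3). P-values were adjusted over 14692 genes by the Benjamini-Hochberg method, with a threshold of 0.05. Standard errors and 95% intervals were taken from the test statistic and its degrees of freedom. Intervals from counts cover counting error only. Ratios within a sample were compared by an exact permutation test. Alternatives were DESeq2 1.42.0 (its size factors and its Wald test), other scalings and filters, the replicate number as a block, and each sample left out in turn. The procedure was tested on simulated counts. The 9 members and the 13 related lists were chosen with earlier results of these data known, and the lists were drawn from general knowledge. From each list other than the marker lists, up to 3 genes per direction were named by the size of the change, among those past the threshold with groups that did not overlap; where another gene is named after its values had been seen, this is stated, and the markers with values of their own were all picked in that way. Promoter windows were those of RefSeq, cut to the 250 bases before the start. The nearest patterns of Cd47 and Ulbp1 are not reported here.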

Additional observations from a re-analysis of the deposited data

How the results depend on the processing

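The calls of Icam1, Lgals9, Ulbp1, Cd274 and Nectin2, and the direction of the 3 ratios, were unchanged under every alternative run for them. The genes that were not called moved around 0. With total counts only, the log2 fold change was 0.20 for Cd47, 0.0185 for Raet1d, 0.21 for Raet1e and 0.28 for Pvr, and that of Pvr passed the test. Pvr was at -0.0216 with no filter and at -0.0014 in DESeq2's Wald test. With each sample left out in turn, Cd47 ran from -0.14 to 0.0089, Raet1e from -0.11 to 0.001 and Pvr from -0.0149 to 0.0265. The replicate numbers did not pair the samples, as same-numbered samples had correlations of 0.03, -0.12 and 0.04 in their deviations from the group means. With the replicate block, 11499 genes were called in place of 11623, the call of no ligand gene changed, and calls went from 1 to 2 for the endothelial markers, from 7 to 6 for the leukocyte adhesion genes, from 3 to 2 for the receptors and from 5 to 4 for the epithelial markers. Among the related lists, the immune and fibroblast markers gave 1 call each, in place of 3 each, when at least 1 CPM in 3 samples was required. The endothelial markers gave 3 calls with no filter. With each sample left out in turn, calls ran from 1 to 2 for the other NKG2D ligands (2 without control sample 2), from 4 to 6 for the leukocyte adhesion genes (7 with all samples, 4 without Folfiri sample 2), from 1 to 2 for the endothelial markers (2 without control sample 2 or 3) and from 3 to 6 for the epithelial markers (5 with all samples, 3 without control sample 2, Folfiri sample 1 or Folfiri sample 2). Tnfsf4 and Vcam1 rest on so few control counts that their folds are loosely bounded, and Ulbp1 had 11 to 38 counts in controls. The cause of these shifts was not tested.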

Other observations

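Proteins that process the ligands after translation were mostly called lower after Folfiri. Of 11 such genes, 10 were tested, of which 1 was higher and 8 lower, beside 40.3% and 38.8% of all tested genes, with a median log2 fold change of -0.69 beside 0.02. Adam10 and Adam17 encode the metalloproteases that shed NKG2D ligands and other surface proteins, and their log2 fold changes were -1.09 (SE 0.08) and -1.08 (SE 0.07). Pdia6, a disulfide isomerase known to assist the shedding of NKG2D ligands, had a log2 fold change of -1.11 (SE 0.08). Qpctl, the enzyme that modifies CD47 at its binding site for SIRPα, was the gene of this list that rose, with a log2 fold change of 0.96 (SE 0.12), and 10.9% of its exon bases overlap Fbxo46. Cmtm6 and Cmtm4, whose products protect PD-L1 from degradation, were called lower with log2 fold changes of -0.31 and -0.23, and both calls were lost with total counts only, at -0.03 (edgeR, adjusted p = 0.683) and 0.04 (edgeR, adjusted p = 0.560). These 2 genes were chosen after their values were seen.

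Transcription factors known to act on ligand genes of this kind were mostly called higher, in a list chosen with earlier results of these data known. Of 15 genes, 15 were tested, of which 10 were higher and 2 lower, beside the same shares of all tested genes, with a median log2 fold change of 0.82 beside 0.02 over all tested genes. Myc rose from 84.6 to 288 CPM (log2 fold change 1.77, SE 0.09) and Relb, an NF-κB subunit, from 17.0 to 43.7 CPM (log2 fold change 1.36, SE 0.10). Fosl1, an AP-1 subunit, had a log2 fold change of 2.02 (SE 0.19), and 57.2% of its exon bases overlap Ccdc85b. Stat2 and Hif1a were lower, with log2 fold changes of -0.84 (SE 0.13) and -0.51 (SE 0.08).

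Among 12 genes for receptors of the ligands, 4 had enough reads to be tested. Tigit, the inhibitory receptor for Pvr and Nectin2 on T and NK cells, had 69, 54 and 44 counts in the control samples and 562, 666 and 695 counts in the Folfiri samples. Its log2 fold change was 3.15 (SE 0.12; edgeR, adjusted p = 9.05e-09) and ran from 3.09 to 3.21 when each sample was left out in turn. No annotated exon of another gene overlaps its exons, and which part of the gene the reads covered was not analysed here. The T cell markers Cd3d, Cd3g, Cd4 and Cd8a had between 0 and 2 counts in every sample. Some other immune markers were higher at low levels: Ptprc, the common leukocyte marker, had means of 0.396 CPM in controls and 1.06 CPM after Folfiri, the macrophage marker Adgre1 of 0.226 and 0.863 CPM, and the Fc receptor chain Fcer1g of 0.0819 and 0.537 CPM. Their part in the Tigit counts was not tested. Itgb2, the β chain of LFA-1, had a log2 fold change of -1.91 (SE 0.28) at levels of 1.81 and 0.485 CPM. Havcr2, which encodes TIM-3, was at 2.57 CPM in controls and 1.87 CPM after Folfiri (log2 fold change -0.47; edgeR, adjusted p = 0.0333), a call that did not hold under all alternatives, with a value of -0.20 under total counts only.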
